A study of Mus musculus with 2 samples.

Results

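Neuropeptide genes encode short secreted signalling peptides, and 9 of them (Cck, Sst, Npy, Cort, Nts, Gal, Tac1, Tac2 and Grp) were followed here out of 31053 genes in the count tables. The members were matched by gene symbol, and all 9 were found. They were chosen by their UMI levels across neuron types and progenitor stages of both libraries, known from earlier results of these counts, so their levels and their differences between libraries are given as a description. Cells came from the microdissected dentate gyrus of mice at postnatal day 2. The KO library was made from hGFAP-Cre;Kdm6bF/F mice, in which Cre driven by the human GFAP promoter acts in radial glia and thereby in their neuronal and glial progeny. The control library was made from littermates labelled WT, and the labels used here do not give their Cre and floxed alleles. Each library pooled 2 animals. Kdm6b encodes a demethylase that removes the repressive mark at lysine 27 of histone H3.

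Neuropeptides are made as larger precursors, cut by prohormone convertases, stored in dense core vesicles and released to act on G protein-coupled receptors. In the hippocampus, somatostatin, neuropeptide Y, cortistatin, tachykinins and cholecystokinin are known products of inhibitory interneurons, and several of them also mark excitatory neurons. Cholecystokinin, for example, is made both by a class of interneurons and by pyramidal neurons of the forebrain. Different interneuron classes have different embryonic origins: Lhx6 marks those of the medial ganglionic eminence, and Adarb2 and Htr3a mark those of the caudal one.

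The filtered cells numbered 2957 in the control library, at a median depth of 7342 UMIs (unique molecular identifiers, each counting 1 captured transcript). There were 1931 filtered KO cells, at a median of 9267 UMIs. Levels are given as CPM, the UMIs of a gene per 1000000 UMIs of the same group of cells. Differences are the log2 ratio of KO over control CPM. Intervals are at 95% and cover counting error only. With 1 library per genotype there is no replicate and no test, so the values compare these 2 libraries and not the genotypes. The libraries also differed in sex markers. Y-linked UMIs without Xist were found in 986 control cells (33.3%) and in 0 of 1931 KO cells. More than 5% of UMIs were mitochondrial in 344 control cells and in 449 KO cells, and the part of this in any difference was not tested beyond the values given beside the results. The files of both libraries shared 9 barcodes. Kdm6b itself stood at 58.1 CPM in all control cells and 57.7 CPM in all KO cells. It was at 48.4 and 32.5 CPM in pyramidal neuron-like cells, at 73.2 and 44.3 CPM in radial glia-like cells and at 41.7 and 41.8 CPM in the GABAergic ones. The counted 3′ end may lie outside the deleted exons, so these levels do not check the labels, and recombination per cell was not measured.

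Cells were grouped into 27 clusters with the neuropeptide genes left out of the clustering, and 20 clusters were named from marker genes. Names such as pyramidal neuron-like rest on those markers alone. The labelled tissue was represented by 2 granule lineage clusters that lead with Prox1 (a Prox1 and Sema5a neuroblast-like cluster, number 2, and a Calb1, C1ql3 and Prox1 granule neuron-like cluster, number 18). Pyramidal neuron-like, Cajal-Retzius cell-like, ependymal-like and vascular clusters were present as well. Inhibitory neurons formed 2 clusters. Cluster 11 led with Lhx6 and Nxph1 and held 79 control and 91 KO cells. Cluster 15 led with Adarb2 and Htr3a and held 71 and 66 cells.

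Promoter sequences are shown for the 4 members whose UMIs were most confined to cluster 11 (Sst, Npy, Cort and Tac1), because their KO to control ratios within that 1 cluster were not alike. Sequences are from RefSeq on GRCm38.p6, read 5′ to 3′ on the strand of the gene, and capitals mark the cAMP response element, the site bound by the activity-regulated factor CREB: its full form in Sst, and its core on the opposite strand, CGTCA, in Cort and Tac1. For Sst the 28 bases around its full site are shown (chr16:23890875-23890902, minus strand). The site ends 40 bases before the RefSeq start of Sst and lies inside the wider gene bounds of the GENCODE annotation. The Npy stretch is chr6:49822460-49822709 (plus strand), the Cort stretch is chr4:149126764-149127013 (minus strand) and the Tac1 stretch is chr6:7554811-7554878 (plus strand). Each of these 3 stretches ends at the base before the annotated gene.
Sst: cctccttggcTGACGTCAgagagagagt
Npy: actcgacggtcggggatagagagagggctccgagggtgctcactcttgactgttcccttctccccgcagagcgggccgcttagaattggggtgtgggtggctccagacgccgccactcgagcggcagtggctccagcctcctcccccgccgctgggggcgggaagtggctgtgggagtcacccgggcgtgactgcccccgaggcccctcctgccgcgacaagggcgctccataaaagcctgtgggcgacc
Cort: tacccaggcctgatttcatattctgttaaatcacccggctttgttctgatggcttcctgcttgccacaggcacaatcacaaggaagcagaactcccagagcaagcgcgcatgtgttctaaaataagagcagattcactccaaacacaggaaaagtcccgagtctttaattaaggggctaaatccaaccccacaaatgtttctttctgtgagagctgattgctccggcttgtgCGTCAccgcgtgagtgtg
Tac1: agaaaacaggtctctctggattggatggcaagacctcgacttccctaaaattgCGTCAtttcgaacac
The full element TGACGTCA was found, on either strand, in the 250 bases before the start of 1 of 8 members with a RefSeq promoter entry (Sst), against 1.55% of 32851 promoter windows of that length. The core TGACG, which the full element contains, was found in 5 of 8 (Cck, Cort, Nts, Sst and Tac1), against 17.8% of windows. TATAAA was found in 0 of 8, against 12.4%. The Npy stretch held 21 CpG pairs and no core of the element. A match describes the letters only and says nothing of binding.

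Over all cells, 1 member (Cort) was at least 2-fold higher in the KO library and 2 (Gal and Tac2) at least 2-fold lower. Of 16081 genes with at least 20 UMIs, 2.78% were that much higher and 1.82% that much lower. Nothing is read from the members' count, since they were chosen with such ratios known. The median log2 ratio was -0.09 over the 9 members and 0.00 over all genes. Whole-library levels mix cell composition with level per cell, so the values below are within clusters. The members differed in how narrowly their UMIs were placed. Cluster 11 held 94.2% of control and 97.0% of KO Sst UMIs, 93.8% and 97.8% of Cort UMIs, 88.5% and 90.9% of Tac1 UMIs and 82.0% and 90.4% of Npy UMIs. A pyramidal neuron-like cluster with Pou3f1, Crym and Bcl11b (number 7) held 61.3% and 63.9% of Cck UMIs. A neuroblast-like cluster with Mfap4 and Eomes (number 10) held 51.9% and 56.0% of Tac2 UMIs. No single cluster held more than 50% of Gal or Grp UMIs in either library, or of Nts UMIs in the KO library. For Gal the fullest cluster was the Prox1 neuroblast-like one, with 36.0% and 30.1%. For Nts it was the Pou3f1 cluster in control cells (66.6%) and the endothelial-like cluster in KO cells (38.9%). For Grp, 43.6% of its control UMIs lay in an unnamed Slc17a7 and Camk2a neuron cluster (number 0), against 14.4% of its KO UMIs, and 19.5% and 41.2% lay in a Nefm, Neurod6 and Chodl pyramidal neuron-like cluster (number 3).

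**Figure D1:**
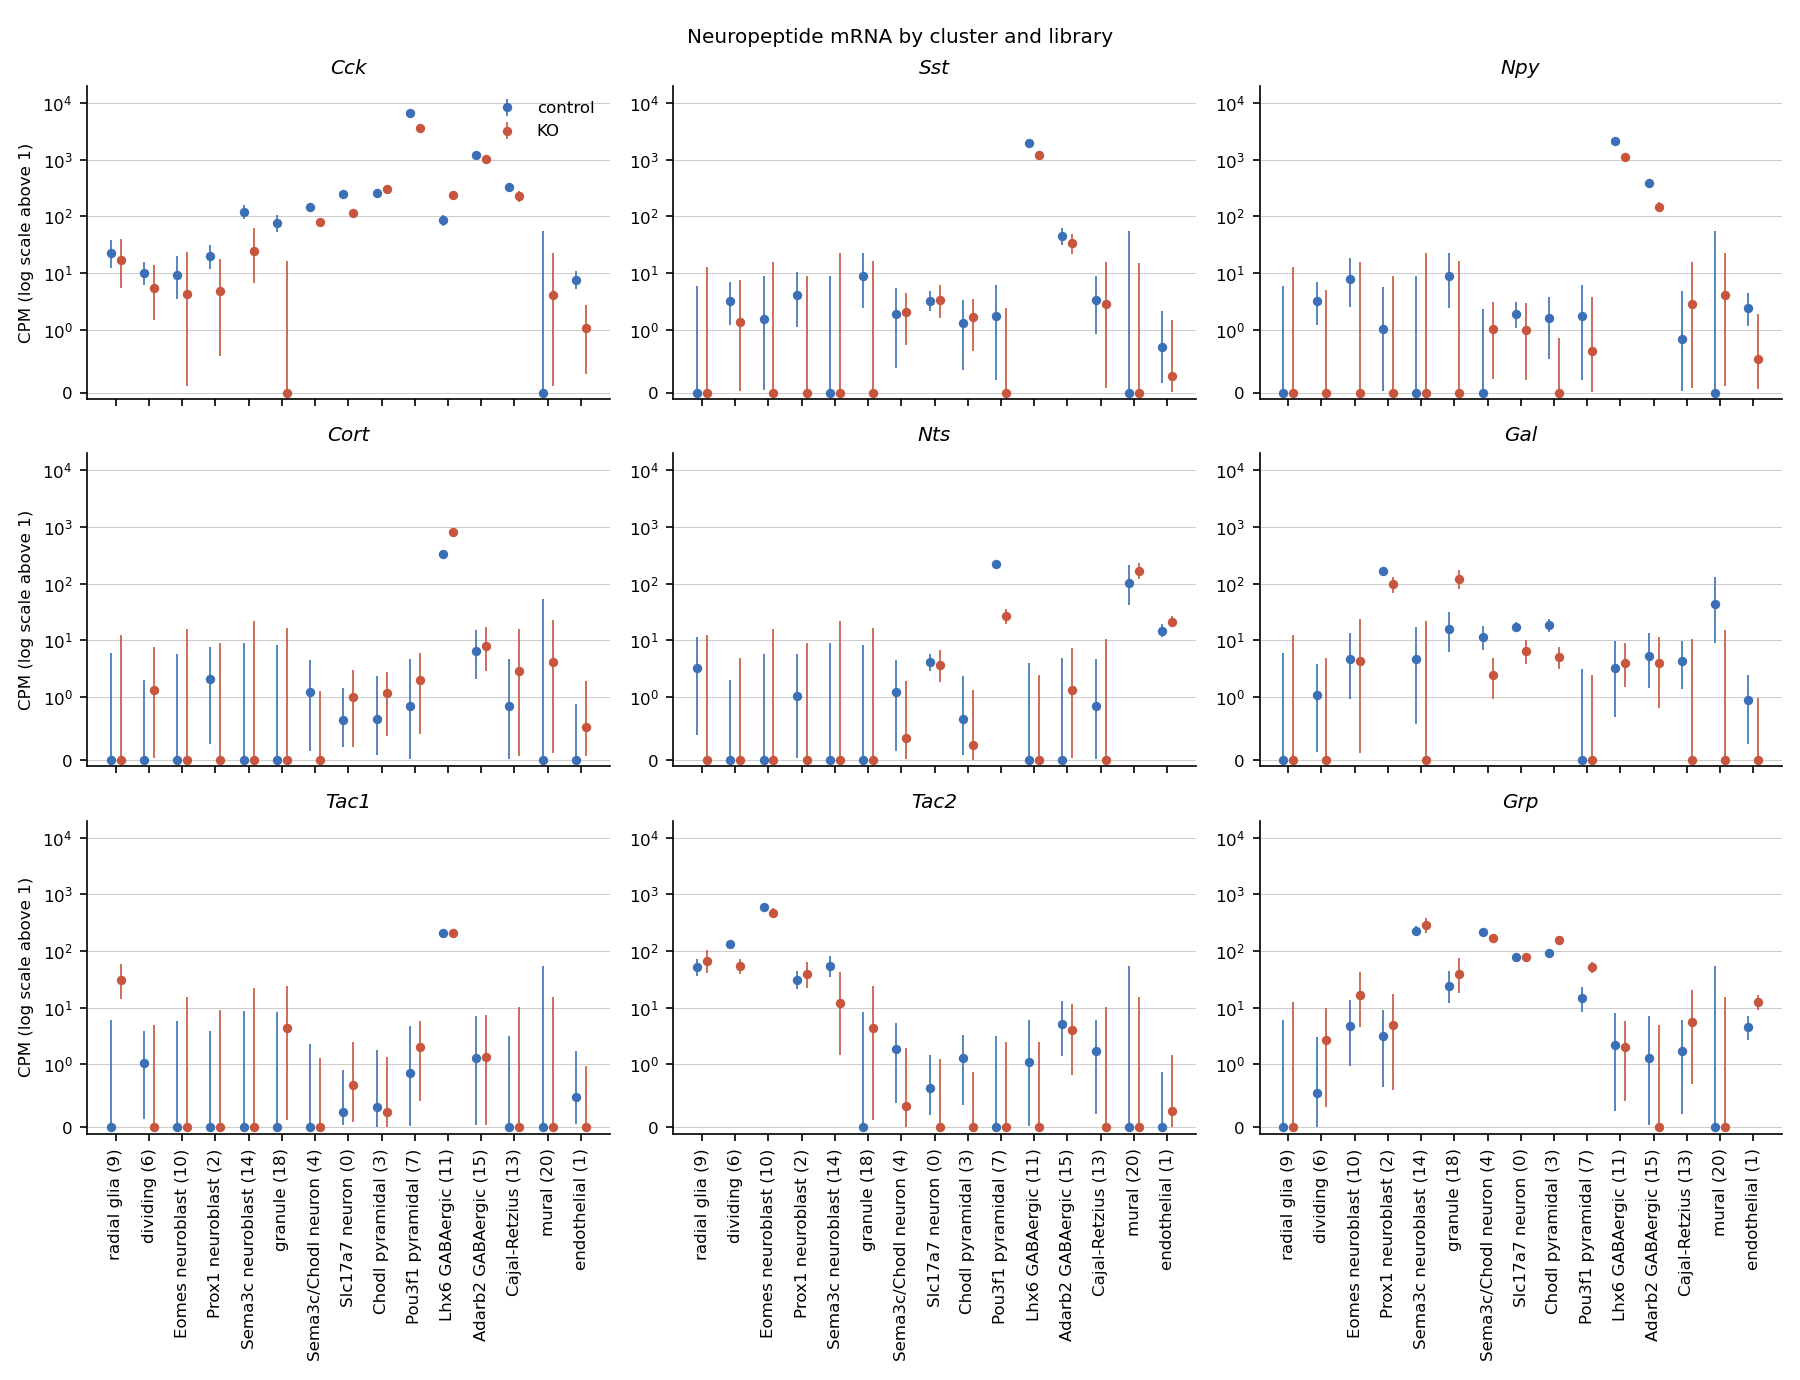
Level of each of the 9 neuropeptide mRNAs (CPM, log scale above 1) in 15 clusters of the control (blue) and KO (red) library; bars are 95% Poisson intervals. Sst, Npy, Cort and Tac1 peak in the Lhx6 cluster, Cck in the Pou3f1 pyramidal cluster and Tac2 in the Eomes neuroblast cluster, in both libraries.

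Endothelial-like cells, which are not known as a main source of these peptides, had few UMIs of most members. Nts was the exception, with 62 control and 81 KO UMIs, 14.9 and 21.5 CPM. Their median depth was 20903 control and 17946 KO UMIs. There Sst was at 0.719 and 0.266 CPM, Npy at 2.40 and 0.532, Tac2 at 0 and 0.266 and Cort at 0 and 0.532. Cck was at 7.67 and 1.06 CPM, with a UMI in 14.7% of control and 2.04% of KO endothelial-like cells. Grp was at 4.55 and 12.5 CPM, with a UMI in 8.12% and 18.4% of cells. Whether those UMIs came from free RNA was not tested. Shares of cells at or below these are not read as expression. The CPM levels set no floor for shallower cells, in which a like number of free UMIs would give a higher CPM. The Cck and Grp ratios within endothelial-like cells are not read as expression.

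In the Lhx6 cluster, Sst, which encodes the inhibitory peptide somatostatin, had 1823 control and 1766 KO UMIs. Its control level of 1996 CPM (interval 1905 to 2090) stood against 1197 CPM (1142 to 1254) in KO cells, which gives a log2 ratio of -0.74. The levels did not overlap in counting error, but the share of cells with an Sst UMI did: 54.4% of control and 52.7% of KO cells. Sst was thus at a lower level while a like share of cells had a UMI. That share was taken at a greater KO depth (median 15099 against 11352 UMIs per cell). In control cells with Xist but without Y-linked UMIs it was at 1760 CPM, in control cells with Y-linked UMIs and no Xist at 2641 CPM and in KO cells with Xist at 1216 CPM, so the sex-marker groups of the control library differed too. In cluster 15, Sst was at 44.3 and 33.4 CPM, and 1 cell in each library held 31 of the 34 and 21 of the 25 UMIs.

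Npy, whose peptide damps transmitter release, was lower in the KO library in both inhibitory clusters. In cluster 11 it had 1932 and 1621 UMIs, which is 2115 CPM (2022 to 2212) against 1099 CPM (1046 to 1154) and a log2 ratio of -0.94. Npy UMIs were found in 70 of 79 control cells (88.6%) and 65 of 91 KO cells (71.4%). With cells thinned to 2000 UMIs the shares were 79.5% and 55.2%. Fewer KO cells therefore had the message at a KO depth that was the greater (median 15099 against 11352 UMIs per cell), and endothelial-like shares were 5.08% and 1.02%. In cluster 15 Npy had 303 and 110 UMIs, 395 and 147 CPM, with a log2 ratio of -1.42 (interval of the ratio 0.297 to 0.465), in 28.2% and 12.1% of cells, or 20.9% and 7.69% at 2000 UMIs. It was the only 1 of 3 members measured there that was past 2-fold, where 2.13% of 7618 genes were at least 2-fold lower and 1.54% at least 2-fold higher. Among cells with at most 5% mitochondrial UMIs the Npy levels were 2097 and 1379 CPM in cluster 11 and 398 and 162 CPM in cluster 15.

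Cort encodes cortistatin, a peptide close to somatostatin that binds the same receptors. In cluster 11 it went the other way, with 301 control and 1204 KO UMIs. The KO level of 816 CPM (771 to 864) lay above the control level of 330 CPM (293 to 369), with a log2 ratio of 1.31 (interval of the ratio 2.18 to 2.82). In that cluster 2 of 5 members measured (Cort and Cck) were at least 2-fold higher and 0 at least 2-fold lower, where 2.56% of 8740 genes were that much higher and 1.66% that much lower. The share of cells with a Cort UMI was similar, 59.5% of control and 62.6% of KO cells, at the greater KO depth. The difference lay in few cells with many UMIs: 6 control and 22 KO cells had 10 or more, and the highest cell had 41 and 227. It also varied with the mitochondrial share. In the 68 control and 61 KO cells with at most 5% mitochondrial UMIs, Cort was at 327 CPM (289 to 369) and 269 CPM (236 to 306). The KO level was no longer the higher one, and the intervals overlapped. In the cells above 5% it was at 346 CPM in 11 control cells and 1608 CPM in 30 KO cells. Those 30 KO cells were deep, with a median of 22420 UMIs against 13565 in the other KO cells of the cluster. Their Cort level rests on few of them: the fullest held 227, 171, 144, 132 and 80 Cort UMIs, and some held 0. Why Cort was high in those few cells was not tested. Cenps, the gene just upstream on the same strand, had 20 and 15 UMIs in the cluster, 21.9 and 10.2 CPM.

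Tac1, the precursor of substance P and neurokinin A, was at 211 CPM in control and 209 CPM in KO cells of cluster 11 (193 and 309 UMIs; log2 ratio -0.01, interval of the ratio 0.826 to 1.19). The libraries were not distinguishable there within counting error. Tac1 also moved with the mitochondrial share, at 229 and 141 CPM in cells with at most 5% and 88.7 and 309 CPM in cells above it. The ratios in the 2 groups of cells thus went opposite ways under equal totals. Above 5%, however, the control level rests on few UMIs, from a cell with 7 and a cell with 3.

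Cck, the precursor of cholecystokinin, marks the Adarb2 cluster more than the Lhx6 cluster. In cluster 15 it was at 1229 CPM in control and 1044 CPM in KO cells, a log2 ratio of -0.24, with UMIs in 54.9% and 42.4% of cells. The top cell held 106 of the 943 control UMIs and 222 of the 781 KO UMIs, so the KO level rests more on 1 cell. KO cells of that cluster were shallower (median 7650 against 11210 UMIs), and with cells thinned to 2000 UMIs the shares were 44.8% and 38.5%. In cluster 11 it had 78 and 352 UMIs, 85.4 and 239 CPM, a log2 ratio of 1.48 (interval of the ratio 2.18 to 3.62). There 2 control and 14 KO cells had 10 or more Cck UMIs. Unlike Cort, Cck kept its direction in cells with at most 5% mitochondrial UMIs, at 93.7 and 296 CPM. Across both sex-marker groups of control cells it was at 82.5 (Xist) and 105 CPM (Y-linked), against 244 CPM in KO cells with Xist.

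**Figure D2:**
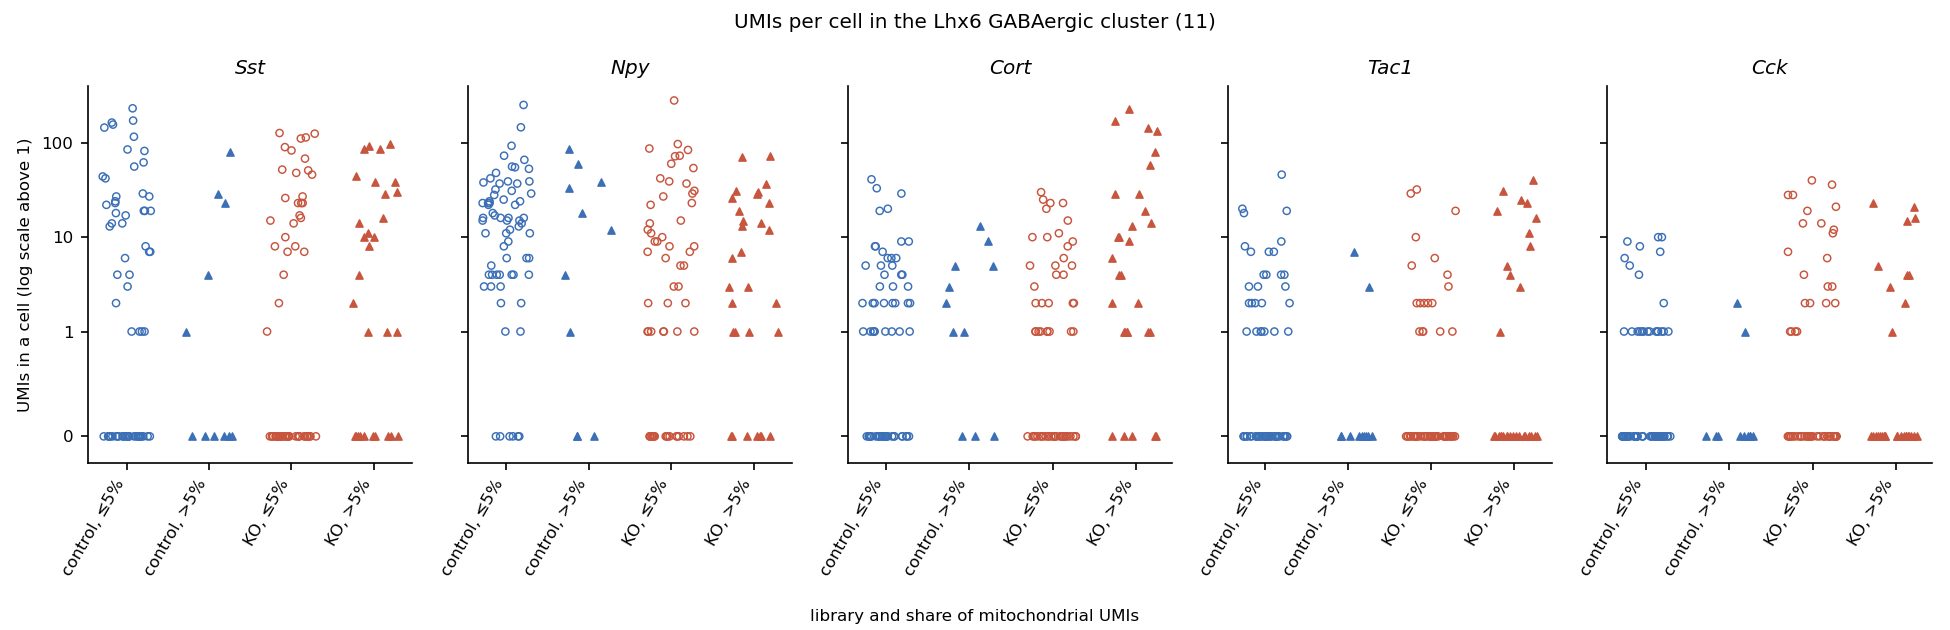
UMIs of Sst, Npy, Cort, Tac1 and Cck in each cell of the Lhx6 cluster (log scale above 1), by library and by whether more than 5% of the cell's UMIs were mitochondrial; 1 mark is 1 cell. KO cells with 10 or more Cort UMIs are 9 of those at or below 5% and 13 of those above.

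Of the 5 interneuron peptides, Npy and Cort were found more often in cells with Sst than in the others. In cluster 11, 42 of 43 control cells with Sst (97.7%) and 43 of 48 KO cells with Sst (89.6%) also had Npy, against 77.8% and 51.2% of the cells without Sst. Cort was found in 79.1% and 79.2% of Sst cells and in 36.1% and 44.2% of the others. Cells with Sst were deeper (median 14460 against 7096 UMIs in control cells and 19264 against 10687 in KO cells), which raises the chance of finding any message. Tac1 and Cck were less frequent in Sst cells in spite of that depth. Tac1 was found in 34.9% of control and 22.9% of KO Sst cells, against 41.7% and 44.2% of cells without Sst; the intervals overlapped within each library. Npy was about as frequent in control cells with Cort (87.2%) as in those without (90.6%). In the KO library 14.6% of Sst cells had Cck (interval 6.07% to 27.8%), against 60.5% of cells without Sst (44.4% to 75.0%), and in the control library the shares were 25.6% and 38.9%. Cells with 3 or more of the 5 messages made up most of cluster 11, with 30 control and 40 KO cells at 3, 12 and 9 at 4 and 6 and 4 at 5. In cluster 15, by contrast, 1 cell in each library had 3 and none had more.

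Among the excitatory neurons, Cck was highest in the Pou3f1 cluster, with 141 control and 126 KO cells. It had 7631 and 5527 UMIs, and its level of 6559 CPM (6412 to 6708) in control cells stood against 3704 CPM (3607 to 3803) in KO cells, with a log2 ratio of -0.82 (interval of the ratio 0.545 to 0.585). Nearly all cells of both libraries had a Cck UMI (94.3% and 96.8%), and the median in cells with a UMI was 47.0 in control and 21.5 in KO cells. Whether the cluster held a different mix of cells in each library was not tested. The ratio was alike in cells with at most 5% mitochondrial UMIs (6501 and 3753 CPM). Control cells with Xist and with Y-linked UMIs were both above, at 7419 and 6264 CPM against 3706 CPM in KO cells with Xist. The choice of cells did matter. Taking the 97 control and 48 KO cells of any cluster that had both a Pou3f1 and a Crym UMI and no Gad1 or Gad2 UMI gave 4520 and 4187 CPM. Elsewhere the order varied, with Cck at 259 and 303 CPM in cluster 3, at 253 and 116 CPM in cluster 0, at 147 and 80.9 CPM in an unnamed Pcp4, Sema3c and Chodl neuron cluster (number 4) and at 328 and 230 CPM in Cajal-Retzius cell-like cells.

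Nts encodes neurotensin, and a minority of cells of the Pou3f1 cluster made it. It had 255 control UMIs and 40 KO UMIs. The KO level was 26.8 CPM (19.1 to 36.5) against 219 CPM (193 to 248) in control cells, with a log2 ratio of -3.02. Of the 3 members measured in the cluster, Nts was at least 2-fold lower and Grp at least 2-fold higher, where 2.26% and 2.31% of 8934 genes were. UMIs of Nts were found in 24 control cells (17.0%) and 7 KO cells (5.56%), and 12 control cells but 1 KO cell had 10 or more. That 1 KO cell held 57.5% of the KO UMIs, so the KO level rests on it. Nts was lower in the KO library on both sides of the 5% mitochondrial share, at 176 and 11.6 CPM below and 1855 and 211 CPM above. The values above 5% rest on few cells, and 23 of the KO UMIs there came from that 1 KO cell. The control cells there with the most Nts UMIs were shallow, with 24 in a cell of 1318 UMIs and 12 in a cell of 1870. Control cells with Xist stood at 133 CPM and control cells with Y-linked UMIs at 276 CPM, against 26.8 CPM in KO cells with Xist. In the vessels Nts was not lower in the KO library. Mural-like cells had 7 and 41 UMIs, 103 and 170 CPM (log2 ratio 0.64, interval of the ratio 0.732 to 4.35), and endothelial-like cells had 62 and 81 UMIs, 14.9 and 21.5 CPM. In the order of Nts levels, the Pou3f1 cluster and mural-like cells led in the control library and overlapped, and mural-like cells led in the KO library.

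**Figure D3:**
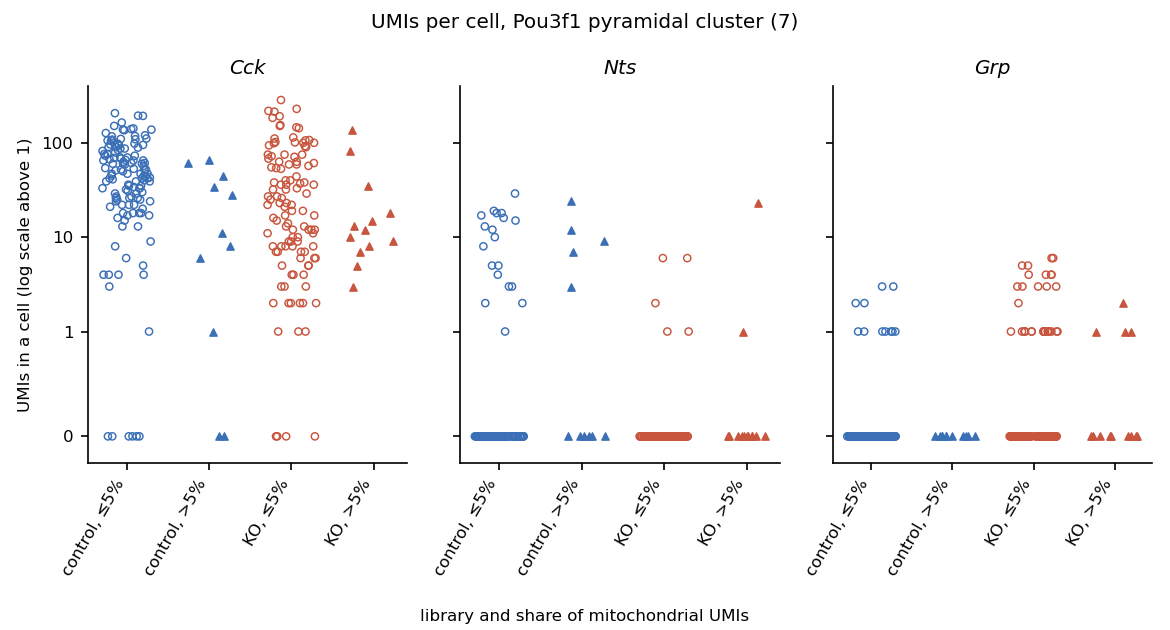
UMIs of Cck, Nts and Grp in each cell of the Pou3f1 pyramidal neuron-like cluster (log scale above 1), by library and mitochondrial share; 1 mark is 1 cell. Cck is found in nearly every cell of both libraries, and Nts reaches 10 or more UMIs in 12 control cells and 1 KO cell.

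Grp, the precursor of gastrin-releasing peptide, was found in several excitatory clusters and was higher in the KO library in the pyramidal neuron-like cluster 3. In cluster 3 it had 277 and 662 UMIs, 90.8 and 157 CPM (log2 ratio 0.79, interval of the ratio 1.51 to 2.00), in 88 control and 134 KO cells. In the Pou3f1 cluster it had 17 and 78 UMIs, 14.6 and 52.3 CPM (log2 ratio 1.81), in 11 of 141 control and 36 of 126 KO cells. That control share was below the control endothelial-like share, so it is not read as expression. The KO share was above the KO endothelial-like one. The endothelial-like levels of 4.55 and 12.5 CPM were also higher in the KO library, and their part in these ratios was not tested. In 2 further clusters the libraries were close or the order was turned. Grp was at 78.1 CPM in both libraries in cluster 0 and at 215 and 169 CPM in cluster 4. Its highest level was in a Sema3c and Meis2 neuroblast-like cluster (number 14), at 225 and 283 CPM, which overlapped with cluster 4 in the control library. Grp has an overlapping gene on the opposite strand that is absent from the rows counted here.

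In the dentate lineage, Tac2, the precursor of neurokinin B, was a message of Eomes-positive progenitors. In the Eomes neuroblast-like cluster it was at 608 CPM (549 to 671) in control cells and 475 CPM (392 to 572) in KO cells, with 388 and 112 UMIs in 47.9% and 57.1% of cells. In dividing cells it had 251 and 40 UMIs, 135 and 54.1 CPM, a log2 ratio of -1.31 (interval of the ratio 0.279 to 0.560). Tac2 was 1 of 2 members measured among dividing cells, where 2.95% of 9247 genes were at least 2-fold lower and 1.86% at least 2-fold higher. Within the dividing cells the message followed Eomes, which encodes the transcription factor of intermediate progenitors. Dividing cells with an Eomes UMI had 331 and 147 CPM (85 and 23 cells), and those without had 10.6 and 4.17 CPM. Over all cells with an Eomes UMI (226 and 78), Tac2 was at 334 and 276 CPM, a smaller gap. The sex-marker groups of the control library differed as well, with 80.6 CPM in dividing control cells with Xist and 157 CPM in those with Y-linked UMIs, against 54.1 CPM in KO cells with Xist. In radial glia-like cells (cluster 9) Tac2 had 32 and 20 UMIs, of which 22 and 18 came from 1 cell in each library.

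Gal, the precursor of galanin, had its highest control level in a Prox1-positive cluster of the granule lineage, but its UMIs were spread over other clusters too. In the control library an unnamed cluster (number 26) came next, at 91.2 CPM on 33 UMIs. Clusters 3 and 0 stood there at 18.7 and 17.5 CPM, in overlap with the granule neuron-like cluster. In the Prox1 neuroblast-like cluster Gal had 159 and 40 UMIs. The control level was 165 CPM (141 to 193), the KO level 97.2 CPM (69.4 to 132) and the log2 ratio -0.75, with UMIs in 28.0% and 22.3% of cells. In the granule neuron-like cluster the order was turned, with 7 control and 28 KO UMIs, 15.6 and 123 CPM, a log2 ratio of 2.91 (interval of the ratio 3.37 to 21.4). Those UMIs came from 5 of 55 control and 11 of 31 KO cells, the top KO cell holding 8, and the order was the same in cells with at most 5% mitochondrial UMIs (17.4 and 91.0 CPM). Of 3 members measured in that cluster, Gal was at least 2-fold higher and Cck at least 2-fold lower, where 4.41% and 8.11% of 5288 genes were. Cck had 34 UMIs in 22 of the 55 control cells and 0 in the 31 KO cells, at least 5.74-fold lower against a floor of 3 counts in the KO library. Gal was lower in the KO library in the pyramidal neuron-like cluster 3 (57 and 21 UMIs, log2 ratio -1.88) and in cluster 0 (139 and 19 UMIs, log2 ratio -1.41). In the order of levels, the Prox1 neuroblast-like cluster led among control cells, whereas among KO cells it overlapped with the granule neuron-like cluster.

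**Figure D4:**
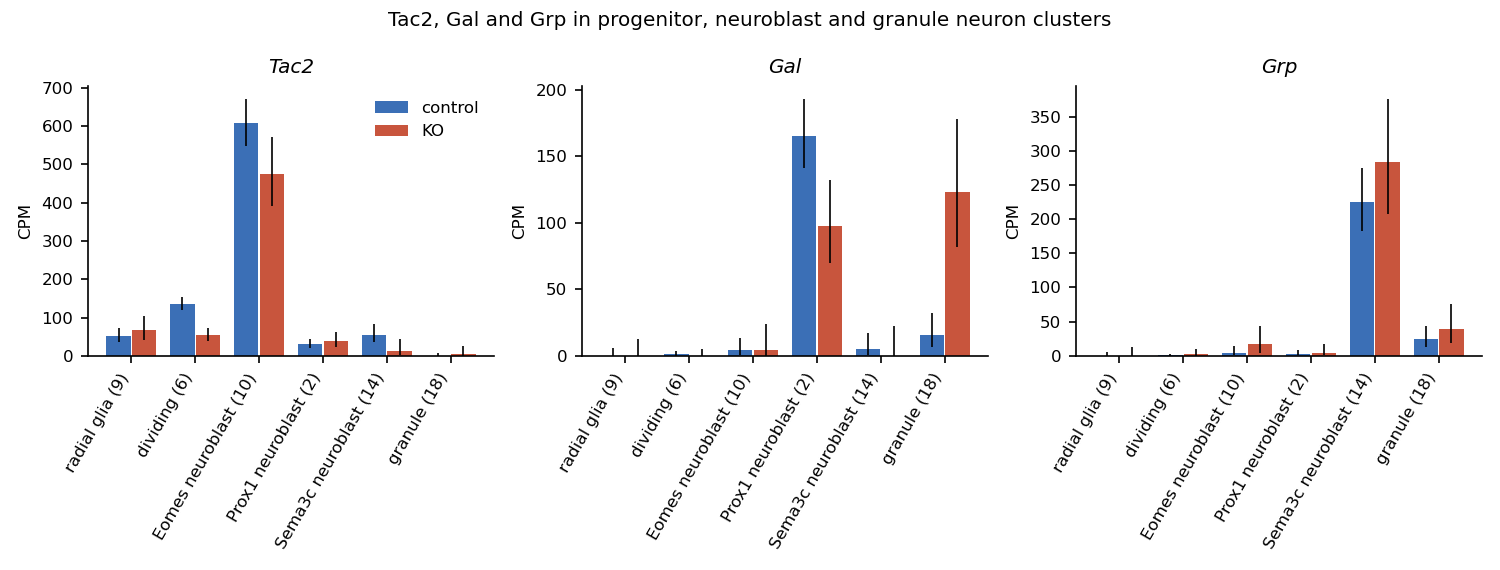
Level of Tac2, Gal and Grp (CPM) in 6 clusters of radial glia-like, dividing, neuroblast-like and granule neuron-like cells of the control (blue) and KO (red) library. Bars start at 0 and lines are 95% Poisson intervals. The Sema3c neuroblast-like cluster did not lead with Prox1, and the order drawn is not read as 1 lineage. Tac2 is highest in the Eomes neuroblast-like cluster, Gal in the Prox1 neuroblast-like cluster of the control library and Grp in the Sema3c neuroblast-like cluster.

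Across the 8 classes with at least 50 cells in each library, 22 pairs of member and class had at least 20 UMIs. Of these, 2 were at least 2-fold higher and 7 at least 2-fold lower in the KO library, where 2.10% and 2.58% of 76514 gene and class pairs were. The higher pairs were Cort in GABAergic neuron-like cells and Grp in endothelial-like cells. The lower ones were Nts and Gal in pyramidal neuron-like cells, Tac2 in dividing cells and Cck in neuroblast-like, astrocyte-like, ependymal-like and endothelial-like cells. All 4 of those Cck pairs had 75 control UMIs or fewer. The Grp and Cck pairs in endothelial-like cells were counted, but, as said above, those ratios are not read as expression. In control neuroblast-like and astrocyte-like cells the share with a Cck UMI was also below the endothelial-like share. The plot of ratios shows how far each member's ratio moved when the cells or settings were chosen differently.

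**Figure D5:**
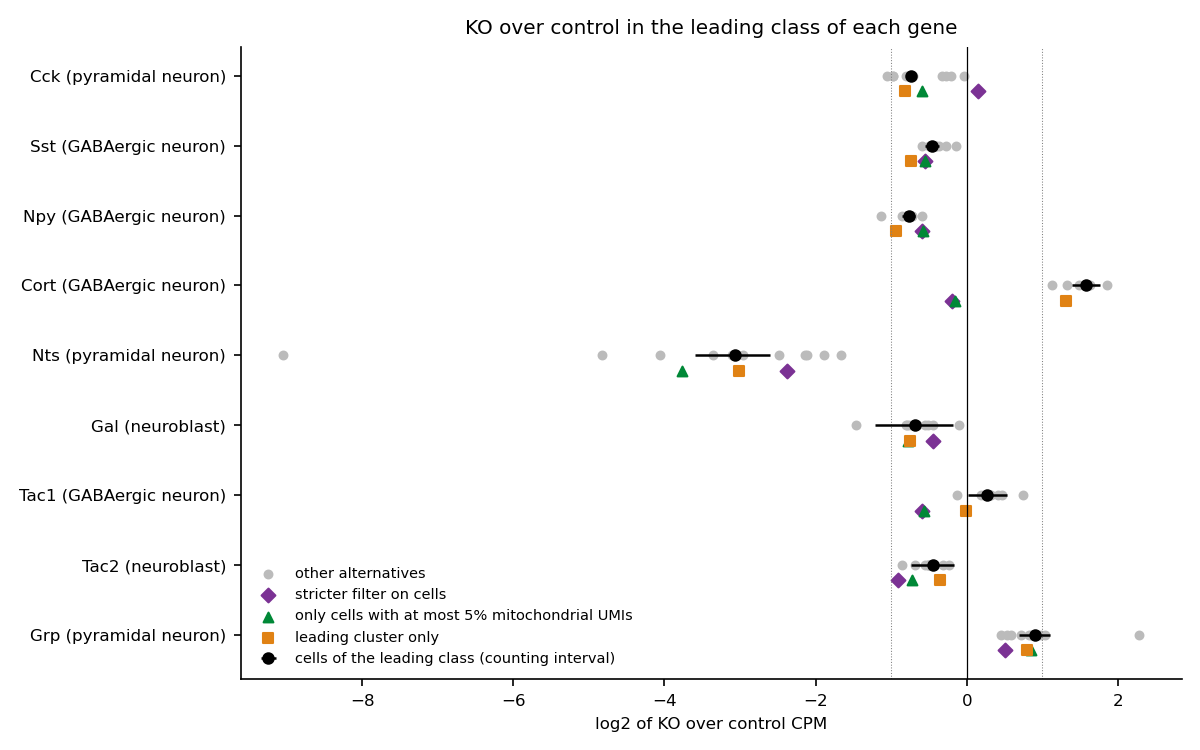
Log2 ratio of KO over control CPM of each gene in the class named beside it (black, with 95% counting interval) and under alternative settings (grey and coloured marks); dotted lines mark 2-fold. Sst, Npy, Nts, Gal and Tac2 stay below 0 and Grp above 0 under every setting drawn, whereas Cck, Cort and Tac1 cross 0 under at least 1, Cort when cells above 5% mitochondrial UMIs are left out.

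Receptors for these peptides were described as a list of 20 genes, of which 13 had at least 20 UMIs over all cells. Tacr3, the neurokinin B receptor, was at least 2-fold higher in the KO library and Galr1, a galanin receptor, at least 2-fold lower, where 2.78% and 1.82% of all genes measured were; the list's median log2 ratio was -0.24 against 0.00 over all genes. Tacr3 had 48 control and 187 KO UMIs. In the KO library its UMIs lay mostly in the 4 excitatory clusters given below, whereas most control UMIs lay outside them. Pyramidal neuron-like cells had 10 and 102 UMIs (2.37 and 17.9 CPM, log2 ratio 2.85, interval of the ratio 3.94 to 16.2). In pyramidal neuron-like cells 1 of 11 receptors measured was at least 2-fold higher (Tacr3) and 1 at least 2-fold lower (Galr1), where 2.22% and 2.13% of 11355 genes were. Tacr3 was higher in the KO library in each of 4 excitatory clusters, with 2 and 76 UMIs in cluster 3, 7 and 39 in cluster 0, 2 and 28 in cluster 4 and 8 and 26 in the Pou3f1 cluster. It was so on both sides of the 5% mitochondrial share in pyramidal neuron-like cells (2.30 and 17.3 CPM below, 3.38 and 20.4 CPM above). Control cells with Xist and with Y-linked UMIs were both low, at 2.20 and 2.75 CPM, against 17.8 CPM in KO cells with Xist. The ligand gene Tac2 had 4 and 0 UMIs in these neurons. Galr1 had 32 and 8 UMIs in pyramidal neuron-like cells (7.59 and 1.40 CPM, log2 ratio -2.37), all of them in cluster 3. The receptor with the most UMIs, the somatostatin receptor gene Sstr2, stood at 82.9 and 62.3 CPM over all cells. It was further apart in progenitors, at 79.3 and 27.1 CPM in dividing cells (log2 ratio -1.52), 200 and 89.2 CPM in the Eomes neuroblast-like cluster (-1.14) and 225 and 102 CPM in cluster 14 (-1.10). In dividing cells the receptor genes Ntsr2 (16 and 25 UMIs, log2 ratio 1.95) and Sort1 (23 and 19 UMIs, 1.06) were higher in the KO library. In GABAergic neuron-like cells Sort1 had 11 and 34 UMIs (1.18) and Sstr2 13 and 8 (-1.07). Of 4 receptors measured in dividing cells 2 were at least 2-fold higher and 1 lower, where 1.86% and 2.95% of 9247 genes were. Of 6 in GABAergic neuron-like cells 1 was higher and 1 lower, where 1.71% and 1.87% of 9926 genes were.

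The genes for cutting and storing peptides stayed within 2-fold over all cells and differed more within some classes. All 15 of that list were measured over all cells, and 0 were past 2-fold (median log2 ratio -0.01). Pcsk1n, an inhibitor of a prohormone convertase, was at 741 and 736 CPM. Cpe, which trims the cut peptides, was at 693 and 674 CPM, and Scg5, a convertase chaperone, at 126 and 198 CPM (log2 ratio 0.65). In GABAergic neuron-like cells 13 were measured and 0 were past 2-fold, where 1.71% of 9926 genes were at least 2-fold higher and 1.87% lower. In the Pou3f1 cluster 13 were measured, and Scg2, a dense core vesicle protein, was at 325 and 124 CPM (log2 ratio -1.39), while the protease gene Furin had 5 and 21 UMIs (log2 ratio 1.61). Of 8934 genes there, 2.31% were at least 2-fold higher and 2.26% at least 2-fold lower. Scg5 was at least 2-fold higher in the KO library in several classes, at 60.2 and 160 CPM in radial glia-like, 50.7 and 103 CPM in dividing, 68.9 and 145 CPM in astrocyte-like and 98.3 and 229 CPM in granule neuron-like cells. Of the list, 7 genes were measured in radial glia-like, 9 in dividing, 8 in astrocyte-like and 11 in granule neuron-like cells. Among all genes, 1.86% were at least 2-fold higher and 2.95% lower in dividing cells. In the granule neuron-like cluster 4.41% and 8.11% were. In dividing cells Chga (40 and 7 UMIs) and Scg2 (21 and 3 UMIs) were at least 2-fold lower, and in neuroblast-like cells Vgf was (37 and 4 UMIs). In ependymal-like cells Chgb (4 and 18 UMIs) and Cadps (12 and 42 UMIs) were at least 2-fold higher. In endothelial-like cells Pcsk1n (59 and 24 UMIs) and Chgb (15 and 6 UMIs) were at least 2-fold lower. In neuroblast-like, ependymal-like and endothelial-like cells 11, 9 and 6 of the list were measured. Pooled over the 8 classes with at least 50 cells in each library, 2.10% of gene and class pairs were at least 2-fold higher and 2.58% lower.

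Of 20 other neuropeptide precursors, 16 had at least 20 UMIs over all cells. Hcrt, Ucn and Crhbp (the last a binding protein for corticotropin-releasing hormone) were at least 2-fold higher, and Vip, Penk, Adcyap1 and Calca at least 2-fold lower in the KO library, where 2.78% and 1.82% of all genes measured were. Vip, a peptide of Adarb2-type interneurons, had 81 and 25 UMIs in cluster 15, 106 and 33.4 CPM (log2 ratio -1.64), so it was lower in the KO library in the same cluster as Npy. Penk, the enkephalin precursor, lay mostly in Cajal-Retzius cell-like cells, with 265 and 29 UMIs, 226 and 82.2 CPM. Pnoc, the precursor of nociceptin, was at 345 and 247 CPM in GABAergic neuron-like cells (log2 ratio -0.48). Among marker genes of the Lhx6 lineage, 6 of 8 were measured in GABAergic neuron-like cells and 0 were past 2-fold, with Lhx6 at 133 and 138 CPM and Maf at 202 and 249 CPM. Of 8 genes of Lhx6-negative interneurons, 8 were measured there and 0 were past 2-fold. Adarb2 was at 332 and 183 CPM (log2 ratio -0.86). Within cluster 15, however, Htr3a was at 126 and 324 CPM (log2 ratio 1.35).

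The genes most like each member were found by Pearson's r of log2 CPM over 16 points (8 classes in 2 libraries), which share libraries and classes. Sst was most like Rpp25 (r = 0.998), Cort most like Crhbp (0.998), Npy most like Npas1 and Pnoc (both 0.990) and Tac1 most like Htr3a (0.970). For Cck the nearest gene was Pcsk2 (0.981), a prohormone convertase. For Tac2 the nearest were Mfap4 (0.960) and Eomes (0.957). Nts was most like Pou3f1 (0.901), one of the leading genes of cluster 7, Gal like Lgals7 (0.974) and Grp like Slit3 (0.967). Since few classes carry each peptide, a high r mostly says that a gene is high in the same class. Both inhibitory clusters count as 1 class here. Tac1 had 1 UMI in each library in cluster 15, where Htr3a is a leading gene, so their r does not place them in the same cluster.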

How the data were processed

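The authors deposited raw UMI counts (whole numbers for each gene in each barcode) from 10x Genomics 3′ libraries of papain-dissociated tissue, per the labels. The submitters' processing notes name mm10 as the build and, as tools, Seurat 3 and Cell Ranger 3.0.2. The part of intronic reads and of strand in the counting is not given in the sources used here. A barcode was kept if it had 500 genes or more, 1000 UMIs or more and no more than 10% of UMIs from mitochondrial genes. That left 3029 of 3555 control and 1967 of 2292 KO barcodes, against a stated target of 2500 cells per condition. Scrublet marked 11 and 18 barcodes (0.309% and 0.785%), so the top-scoring 0.8% per 1000 barcodes were removed instead, 72 and 36 of those that had passed. The kept cells held 31518520 and 25487578 UMIs.

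Each cell was scaled to 10000 counts and log-transformed. Both libraries were clustered together by the Leiden method at resolution 1 (leidenalg 0.10.2, scanpy 1.11.5), from 15 neighbours in 30 principal components of 2000 variable genes. Members, receptors, processing genes and other precursors were kept out of the variable genes. Of these, only the members were also left out of the leading genes used for naming. A cluster took the name with the most markers among its 10 leading genes if at least 3 markers were detected, each in 10% of cells or more and at least 1.5-fold above other clusters. Ties and failures left 7 clusters unnamed.

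UMIs were summed per library and class, with 0.5 UMI added for ratios of CPM and at least 20 UMIs over both libraries required for a call at 2-fold. Intervals at 95% are exact Poisson for sums, conditional binomial for ratios and Clopper-Pearson for shares. A count of 0 was bounded at 3 counts. For thinned shares, cells were drawn down to 2000 UMIs, leaving out 202 control and 158 KO cells. Likeness used genes with at least 100 UMIs and log2 of CPM plus 10.

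The members and all lists were chosen with earlier results of these data known. All 9 members and Kdm6b were named, and from the other lists, in each class spoken of, up to 4 genes with most UMIs and every gene past 2-fold could be named. Cenps was named for its position, after its values were seen. The ratio step was tested on simulated counts for the 8 classes. Positions are on mm10 (GENCODE annotation), and RefSeq promoter entries matched 8 of 9 members. Alternatives changed filters, doublet removal, clustering, depth, scaling (edgeR 4.0.16 in R 4.3.3), weighting and the cells used.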

Additional observations from a re-analysis of the deposited data

How the results depend on the processing

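Log2 ratios in each gene's leading class were recomputed under 15 alternatives each; those that leave out the top cell of each library, keep the leading cluster or keep cells with at most 5% mitochondrial UMIs were chosen after seeing the data. The sign was the same under all 15 for Sst, Npy, Nts, Gal, Tac2 and Grp, under 14 for Cck, 13 for Cort and 11 for Tac1. Of these, Gal at resolution 0.5 rests on 5 control and 1 KO UMIs, under the minimum of 20, so its sign there says nothing. Cort turned to -0.19 under a stricter filter on cells (at least 1000 genes, 2000 UMIs and at most 5% mitochondrial UMIs) and to -0.16 in cells with at most 5% mitochondrial UMIs. The stricter filter moved Cck to 0.15, Sst to -0.55, Npy to -0.59, Nts to -2.38, Tac1 to -0.59, Tac2 to -0.91 and Grp to 0.51. Keeping cells with at most 5% mitochondrial UMIs gave Cck -0.60, Npy -0.58, Nts -3.77 and Tac1 -0.57. No filter on cells gave Cck -0.28, Nts -1.66 and Grp 0.53, and no doublet removal gave Cck -0.98 and Grp 2.28, the latter on 18 control UMIs against 294, since the class held other cells. Resolution 0.5 gave Cck -0.81 and Grp 0.45, resolution 2 gave Cck -0.04, Nts -2.14 and Gal -1.46, and 4000 variable genes gave Cck -0.33 and Nts -2.11. Weighting cells alike gave Cck -0.98, Sst -0.59, Npy -1.13, Cort 1.13, Nts -4.83 and Tac1 -0.13. Cells with Xist but without Y-linked UMIs gave Cck -1.05, Sst -0.28, Cort 1.32, Nts -2.48 and Tac1 0.74. Cells chosen by marker UMIs gave Cck -0.21, Sst -0.15, Npy -0.59, Cort 1.86, Nts -1.89, Gal -0.11, Tac2 -0.86 and Grp 0.59. The leading cluster alone gave Cck -0.82, Sst -0.74, Npy -0.94, Cort 1.31 and Tac1 -0.01. For Nts, subtracting the endothelial level gave -9.04, since the KO class then stands near 0, and leaving out the top cells gave -4.06. The cause of the other shifts was not tested. The count of pairs at least 2-fold higher was 1 with no filter, the stricter filter, resolution 0.5, 4000 variable genes, marker UMIs, the endothelial level subtracted or cells with at most 5% mitochondrial UMIs, and 13 with at least 1 UMI. The count at least 2-fold lower was 4 with marker UMIs, the endothelial level subtracted or at least 50 UMIs, 21 with at least 1 UMI and 12 at 1.5-fold. Few UMIs limit Nts and Gal, each with 41 KO UMIs in its leading class, and 1 KO cell holds 57.5% of the KO Nts UMIs in the Pou3f1 cluster. No paired analysis was possible because each genotype has 1 library.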
